A study of Mus musculus with 24 samples.

Results

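The RAF, MEK, ERK and p38 kinases are the relay that carries signals from the cell surface to the nucleus, and the ends of both relays, ERK and p38, phosphorylate and switch on MSK1. The 8 genes described here are Araf and Braf, which encode RAF kinases, Map2k1 and Map2k2, which encode MEK1 and MEK2, Map2k6, which encodes MKK6, Mapk3, which encodes ERK1, and Mapk11 and Mapk14, which encode p38β and p38α. They were taken by symbol from the 49568 gene symbols counted in each library, and all 8 passed the filter on low counts together with 18482 genes in all.

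The data came from RNA sequencing of the whole hippocampus of male mice of 12 weeks by the labels on a C57-Bl/6J background (backcrossed from C57-Bl/6n), and the question was how rearing and MSK1 kinase activity bear on gene expression. The methods of the study give the age as a range in months that begins near the labelled age. WT mice carried unaltered MSK1. MSK1 KD mice carried, in the endogenous gene Rps6ka5 and so in every cell, a point mutation that leaves the kinase dead, and both genotypes were kept as homozygous lines. Mice in standard housing (SH) lived in ordinary cages, and enriched mice (EE) were reared from birth in large rat cages with a running wheel, tubes and toys that were changed.

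The results rest on 22 libraries, with 6 in WT SH, 5 in WT EE, 6 in KD SH and 5 in KD EE. Another 2 enriched libraries, 33B and 34B, failed the quality control of the study, and the study also set aside 5 of the 22 (2, 9, 12, 31B and 35A) for poor correlation within their group, which is a choice by the measured expression. Depth lay between 8911999 and 56752074 reads counted on genes in a library, and the least abundant of the 8 genes, Map2k6, still held at least 144 counts in every library. Nothing in the labels says whether a library is 1 animal, so the p values measure the spread between these libraries. Libraries with a letter in their code are all enriched, so this naming and the housing cannot be told apart except through the numbered enriched libraries. Markers of the tissue were present in every group, with the 3 dentate gyrus markers at 155 to 316 CPM and the 3 CA1 markers at 284 to 481 CPM in sum.

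In this relay each tier is a kinase that phosphorylates the next. RAF kinases phosphorylate MEK1 and MEK2, which phosphorylate the ERK kinases, while MKK6 phosphorylates the p38 kinases. In hippocampal neurons the ERK arm is known for coupling synaptic activity and neurotrophins to transcription and memory, and the p38 arm for responses to stress and cytokines and for forms of synaptic depression. These steps are switches on the proteins, and the libraries measured only the transcripts.

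The part of each gene on which the relay turns is the activation loop, and the short coding stretches below show where one tier acts on the next. They were read from the GENCODE M21 transcripts (GRCm38) and are written 5′ to 3′ on the coding strand, with the codons of the phosphorylated residues in capitals. In ERK1 and in the p38 kinases the capitals are a threonine and a tyrosine codon with a codon between them, and the codon between them encodes glutamate in Mapk3 and glycine in both p38 genes.
Mapk3: ggctttctgACGgagTATgtggccaca
Mapk11: gaggagatgACCggaTATgtggccaca
Mapk14: gatgagatgACAggcTACgtggctacc
The Mapk3 stretch lies in exon 4 at chr7:126763449-126763475 (plus strand) and its capitals are codons 203 and 205 of 380. The Mapk11 stretch lies in exon 7 at chr15:89145857-89145883 (minus strand), and that of Mapk14 in exon 7 at chr17:28728390-28728416 (plus strand), both with capitals at codons 180 and 182.

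In the kinases of the middle tier the capitals mark 2 serine codons in Map2k1 and Map2k2, and a serine and a threonine codon in Map2k6.
Map2k1: attgacTCTatggccaacTCCttcgtg
Map2k2: atcgacTCCatggccaacTCGtttgta
Map2k6: gtcgacTCTgttgctaaaACGatcgat
The Map2k1 stretch is in exon 6 at chr9:64193723-64193749 (minus strand, codons 218 and 222 of 393). The Map2k2 stretch is in exon 6 at chr10:81119334-81119360 (plus strand, codons 222 and 226 of 401). The Map2k6 stretch is in exon 8 at chr11:110496416-110496442 (plus strand, codons 207 and 211 of 334). The RAF genes are Araf at chrX:20797814-20860519 (plus strand) and Braf at chr6:39603237-39725463 (minus strand). Of their exon bases, 0.138% in Araf are shared with Syn1 and 1.053% in Braf with Ndufb2, and the other 6 genes share no exon base with another gene.

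All 8 genes were transcribed in the hippocampus of every group, and their order by level was led by MEK1 and ERK1. Per kb of exon, a scale on which genes can be compared, Map2k1 stood highest at 90.8 ± 5.91 CPM per kb (SD, n = 22; CPM are counts scaled to the depth of the library) and Mapk3 next at 69.3 ± 7.38. The RAF kinase Araf (22.5 ± 1.28) and the p38α gene Mapk14 (24.1 ± 1.08) followed. Map2k2 (13.8 ± 1.24), Mapk11 (12.0 ± 1.47) and Braf (11.9 ± 0.979) formed a lower tier, and Map2k6 was lowest at 3.71 ± 0.513.

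Within a library the order of the tiers held, while the distances between them varied. Map2k1 was above Mapk3 and Mapk3 above Mapk14 in 22 of 22 libraries, as were Araf above Map2k2 and Braf above Map2k6. The neighbours that did not differ beyond their spread were Mapk14 and Araf (Mapk14 higher in 17 of 22 libraries), Map2k2 and Mapk11 (Map2k2 higher in 19 of 22), and Mapk11 and Braf (Mapk11 higher in 10 of 22). The mean of Map2k1 per kb was 24.5 times that of Map2k6. These ratios rest on the union of annotated exons, so a gene that uses only part of a long annotation would be placed too low. Braf had the longest union of the members, at 13862 bp, and the part that each gene uses was not measured.

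**Figure D1:**
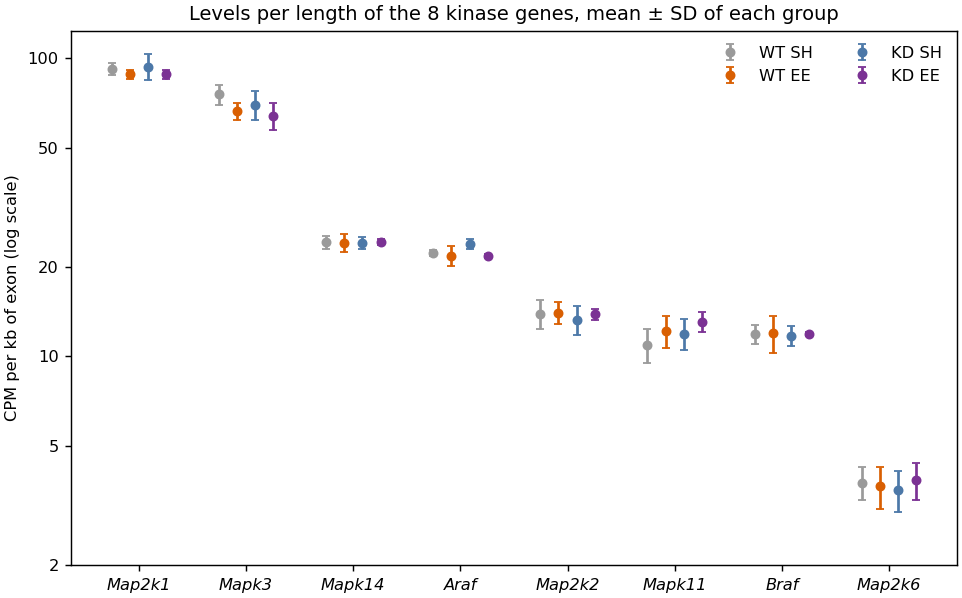
Level of each kinase gene per kb of exon (CPM per kb, log axis), as mean ± SD of the libraries of each group (6 SH and 5 EE libraries in each genotype). Genes are ordered by their mean over 22 libraries, from Map2k1 at 90.8 to Map2k6 at 3.71, and the 4 groups of any gene lie close together beside these distances.

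The 8 genes differed in how steady they were. The coefficient of variation of CPM over the 22 libraries was 4.46% for Mapk14, and 4.10% of the 3489 genes within 2-fold of its level varied less. Araf (5.69%) and Map2k1 (6.51%) were also steadier than the median gene of their level (8.07% and 7.84%). Mapk3 (10.6%) and Mapk11 (12.2%) varied more than 80.3% and 81.6% of the genes of like level. Map2k6, the least abundant, had the highest coefficient of variation of the 8 (13.8%), and 69.5% of the genes of like level varied less. Beside genes of like level, the 2 p38 genes lay at opposite ends of the 8, Mapk14 steady and Mapk11 variable.

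Enrichment of WT mice was compared first, since these mice have an active MSK1. None of the 8 genes passed the test, called as an adjusted p of 0.05 or less and a log2 fold change of at least 0.38 either way, and neither did any of the 18482 genes (percent called 0), while DESeq2 called 20 genes, none of them a member. ERK1 showed the lowest p of the 8. Mapk3 was between 151 and 189 CPM in WT SH, with a median of 171, and stood at 149, 143, 141, 165 and 151 CPM in the WT EE libraries 16, 17, 31B, 33A and 35A. Of these 5 libraries, 3 lay below every standard housed library, and the groups overlapped through 33A and 35A, as they did for every member, while 0.698% of all genes had all enriched WT libraries below all standard housed ones. The log2 fold change was -0.19 ± 0.075 (SE), with an unadjusted p of 0.0163 and an adjusted p of 0.448. It was the only member with an unadjusted p under 0.05, which 8.65% of all genes (1598) had.

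Of the p38 genes, Mapk11 was between 26.8 and 39.0 CPM in WT SH, with a median of 30.9, and at 34.8, 40.0, 34.5, 28.5 and 37.98 CPM in the 5 WT EE libraries in the same order. Most enriched libraries were above the standard housed median, and the ranges overlapped almost fully. The log2 fold change of Mapk11 was 0.15 ± 0.094 (SE, adjusted p = 0.699). With 1 library left out it lay between 0.10 (without library 17) and 0.22 (without library 12), and it was 0.24 without the lettered libraries. Mapk14 differed by -0.01 between the housings on the log2 scale, with a 95% interval from -0.105 to 0.0934. In this fit over the 22 libraries, the intervals of the 8 genes ran from -0.347 to 0.344. None of them reached the fold of 1.3 that the threshold stands for.

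For the RAF genes the numbered and the lettered WT EE libraries lay apart. Braf was at 151 and 134 CPM in the numbered libraries 16 and 17, and at 176, 179 and 193 CPM in the lettered libraries 31B, 33A and 35A, with WT SH from 147 to 181. Araf ran the other way, at 151 and 156 CPM in the numbered libraries and at 141, 132 and 133 CPM in the lettered ones. In WT EE the lettered libraries were thus higher in Braf and lower in Araf than the numbered ones. In KD EE, Braf overlapped, at 163, 162 and 166 CPM in libraries 7, 8 and 9 and at 169 and 163 CPM in 32A and 36A. Araf was at 143, 145 and 142 CPM in the numbered KD EE libraries and lower, at 139.8 and 141 CPM, in the lettered ones. The share of all genes that lay apart in this way was not counted. The mean of Braf was 166 ± 23.7 CPM in WT EE and 165 ± 12.3 CPM in WT SH (SD). With the lettered libraries left out, the log2 fold change of Braf in WT mice went from 0.02 to -0.21 ± 0.084 (SE, adjusted p = 0.247), and that of Araf from -0.04 to 0.08 ± 0.059 (SE, adjusted p = 0.617).

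In MSK1 KD mice, enrichment was likewise called for none of the 8 genes and for none of all genes tested (percent called 0), and DESeq2 called 3 genes, none of them a member. Here the RAF kinase Araf had the lowest p. Araf was between 149 and 166 CPM in KD SH, with a median of 155, and at 143, 145, 142, 139.8 and 141 CPM in the KD EE libraries 7, 8, 9, 32A and 36A. Every enriched library was below every standard housed one, a full separation downward that 0.390% of all genes (72) showed. The log2 fold change was -0.13 ± 0.046 (SE), the unadjusted p was 0.0110 and the adjusted p 0.467, and 9.63% of all genes (1779) had an unadjusted p under 0.05. With the trend of each library by the GC content and length of its genes as covariates, added after seeing the data, the difference was -0.03 (unadjusted p = 0.553). The other 7 members overlapped between the housings.

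Mapk3 in MSK1 KD mice was between 123 and 168 CPM in SH, with a median of 165, and at 144, 169, 137, 142 and 131 CPM in the enriched libraries in the same order. Its groups overlapped at both ends, through the low standard housed library 5 and the high enriched library 8. The log2 fold change was -0.11 ± 0.075 (SE, adjusted p = 0.642), and with 1 library left out it lay between -0.17 (without library 8, and likewise without library 5) and -0.07 (without library 36A). It was -0.05 ± 0.090 (SE, adjusted p = 0.954) without the lettered libraries. Mapk11 was between 30.1 and 40.1 CPM in KD SH, with a median of 33.6, and at 37.6, 41.4, 39.5, 34.01 and 35.98 CPM in KD EE. Its enriched libraries all lay above the standard housed median, with overlapping ranges, and the log2 fold change was 0.14 ± 0.094 (SE, unadjusted p = 0.143, adjusted p = 0.629). Over the 8 genes the 95% intervals ran from -0.265 to 0.370.

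The middle tier showed no gene with an unadjusted p under 0.05 in either genotype over the 22 libraries. Map2k1, the MEK1 gene, differed between EE and SH by -0.06 ± 0.059 (SE) in WT and by -0.08 ± 0.059 in MSK1 KD mice, which became -0.13 ± 0.047 (adjusted p = 0.524, unadjusted p under 0.05) without library 5, and -0.05 without library 1 or without the lettered libraries. Map2k2, the MEK2 gene, differed by 0.01 ± 0.078 in WT and by 0.08 ± 0.078 in MSK1 KD mice. With 1 library left out, its WT value lay between -0.04 (without library 14) and 0.05 (without library 35A), and it was 0.12 without the lettered libraries. Its MSK1 KD value lay between 0.02 ± 0.072 (without library 5) and 0.12 (without library 6). Map2k6, the activator of p38, differed by -0.04 ± 0.123 in WT and by 0.11 ± 0.125 in MSK1 KD mice. The WT value of Map2k6 lay between -0.10 (without library 33A) and 0.04 (without library 17) with 1 library left out. Its MSK1 KD value then lay between 0.05 (without library 9) and 0.19 (without library 36A). Without the lettered libraries its WT value was -0.25 ± 0.160 (SE, adjusted p = 0.513). Map2k1 was lowest of all libraries in library 5 (KD SH), at 258 CPM, and its other 5 libraries of that group were at 309 to 346 CPM. Mapk14 differed by 0.02 ± 0.048 in MSK1 KD mice.

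**Figure D2:**
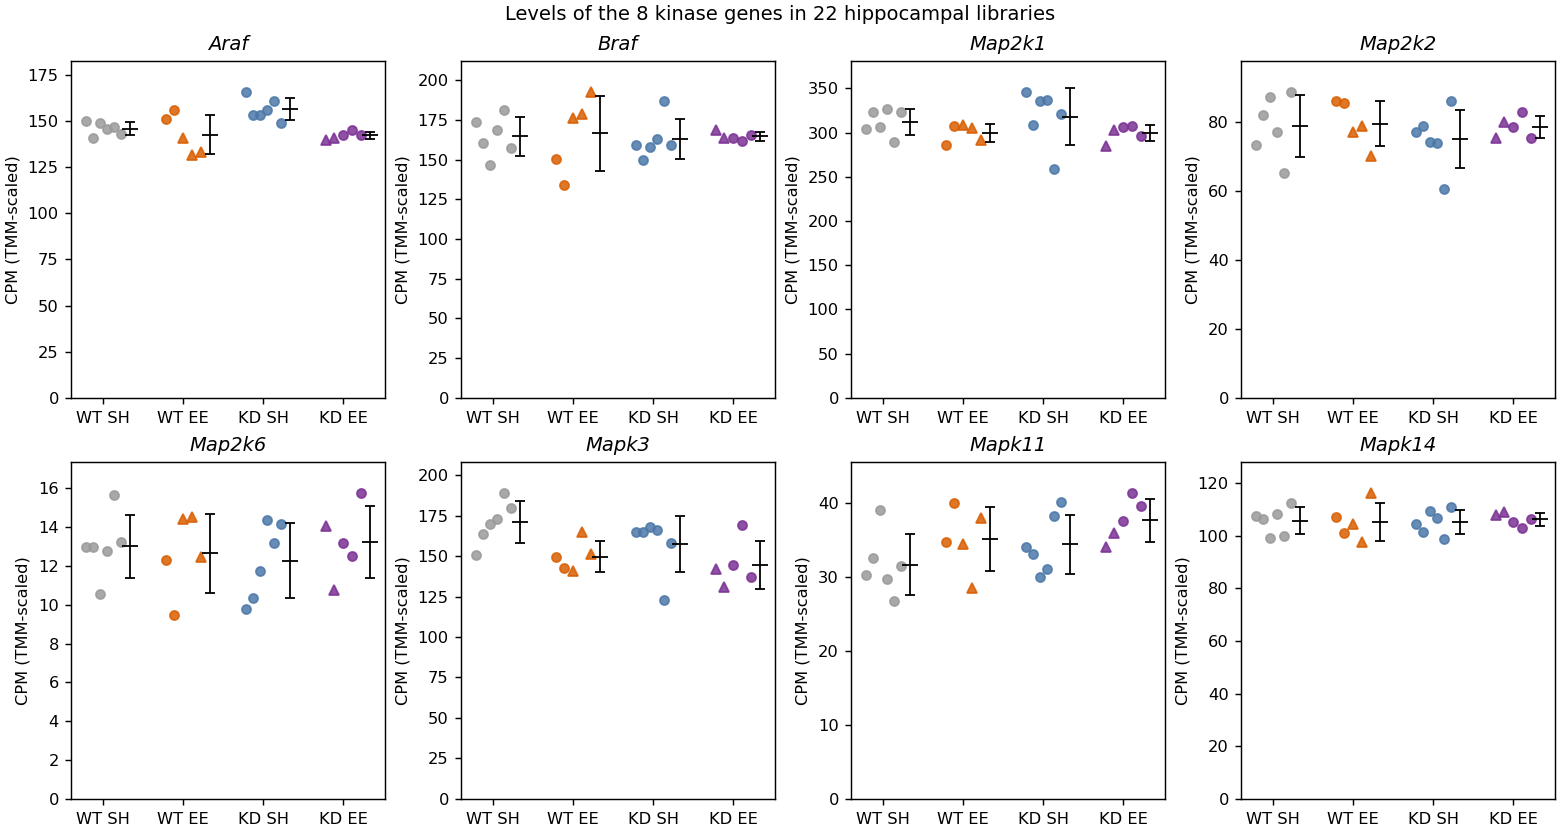
CPM of each gene in each of the 22 libraries by group, with circles for numbered and triangles for lettered libraries, and the mean ± SD of each group beside them (n = 6, 5, 6 and 5). Araf is the gene whose KD EE libraries all lie below the KD SH libraries, and the WT EE libraries of Braf run from 134 to 193 CPM.

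Over both genotypes, which has the most libraries behind it, 27 of all genes were called (0.146%) and none of the 8. The median log2 fold change of the 8 was 0.02, beside 0.0047 over all genes. An unadjusted p under 0.05 was reached by 3 of the 8, and by 16.1% of all genes. These were Mapk3, at -0.15 ± 0.053 (SE, unadjusted p = 0.00845, adjusted p = 0.147), Araf, at -0.08 ± 0.032 (SE, unadjusted p = 0.0197, adjusted p = 0.212), and Mapk11, at 0.15 ± 0.066 (SE, unadjusted p = 0.0367, adjusted p = 0.270). ERK1 and the RAF kinase Araf were the ones with lower means in enriched mice, and p38β the one with a higher mean.

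These values moved with the fit in unlike ways. Mapk3 lay between -0.18 and -0.12 over the 33 alternative fits and Mapk11 between 0.12 and 0.34, with no change of sign for either. Araf lay between -0.10 and 0.01. Over the 17 libraries that the study kept, 3.85% of all genes were called over both genotypes, 3.55% within WT and 1.74% within MSK1 KD mice, and again none of the 8, with Mapk3 at -0.13 (unadjusted p = 0.0674), Araf at -0.07 (unadjusted p = 0.129) and Mapk11 at 0.15 (unadjusted p = 0.0542). The lowest adjusted p of any of the 3 in these fits was 0.0622, for Mapk3 without library 5.

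**Figure D3:**
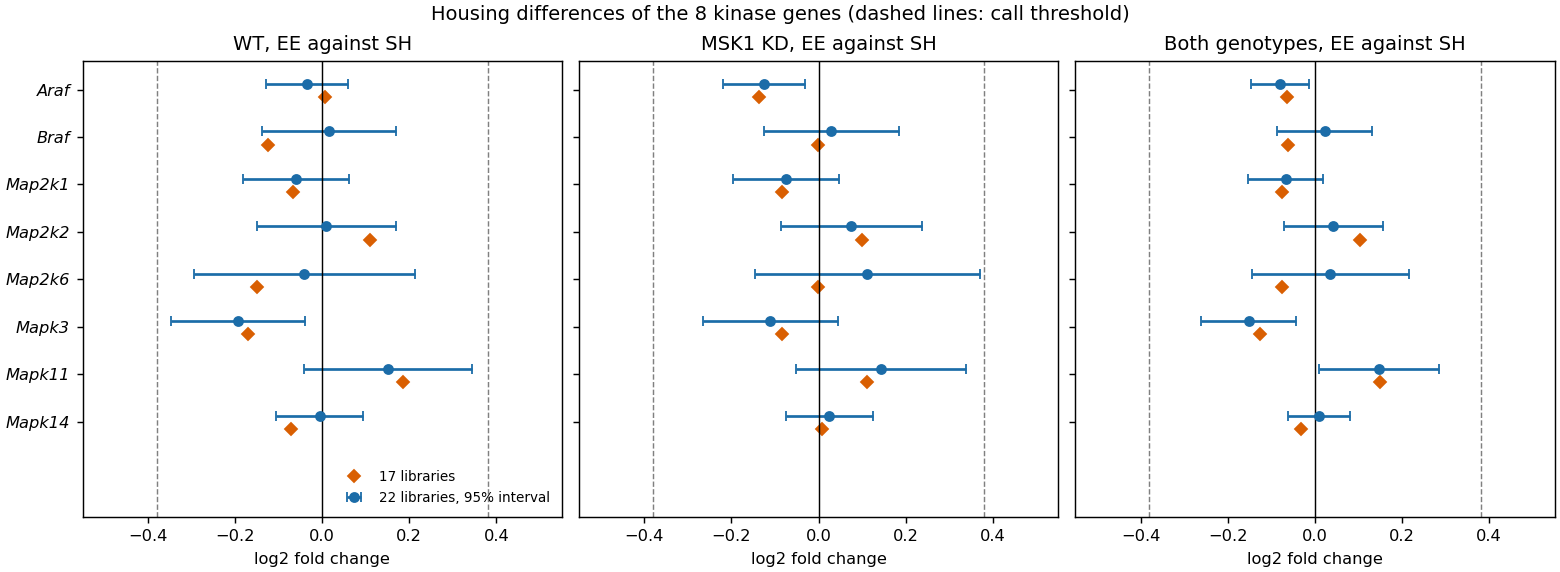
Log2 fold change of enriched against standard housed libraries for each gene in WT mice, in MSK1 KD mice and over both genotypes. Circles and bars are the fit over 22 libraries with its 95% interval, diamonds the fit over the 17 libraries of the study, and dashed lines the call threshold of 0.38, which no interval crosses.

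The genotypes were then compared within each housing. Between WT SH and KD SH, none of the 8 and none of all genes was called (percent called 0), and DESeq2 called 2 genes, none of them a member. Araf was at 141 to 150.0 CPM in WT SH and at 149 to 166 CPM in KD SH, with an overlap of the highest WT and the lowest KD libraries. Its log2 fold change of WT against KD was -0.10 ± 0.043 (SE, unadjusted p = 0.0331, adjusted p = 0.811), the only one of the 8 with an unadjusted p under 0.05, which 5.76% of all genes (1065) had. With the trends by GC content and length as covariates it was -0.02 (unadjusted p = 0.591). Mapk3 was higher in WT SH by 0.12 ± 0.071 (SE) on the log2 scale (adjusted p = 0.823), and by 0.06 ± 0.061 without library 5. Mapk11 was at -0.12 ± 0.089 (SE, adjusted p = 0.867), between -0.18 (without library 12) and -0.07 (without library 6) with 1 library left out. Over the 17 libraries that the study kept, Mapk11 was at -0.19 (unadjusted p = 0.0486, adjusted p = 0.881) and Araf at -0.11 (unadjusted p = 0.0495, adjusted p = 0.881).

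Between WT EE and KD EE, none of the 8 and none of all genes was called (percent called 0), and the 8 log2 fold changes lay between -0.11 and 0.04. Over the 17 libraries this comparison called 0.00535% of all genes and none of the 8. Over both housings none was called for genotype (percent called 0 of all genes), with Mapk11 lowest in p at -0.11 ± 0.067 (SE, adjusted p = 0.809). The interaction asks whether enrichment acted differently in the genotypes, and it too called none of the 8 (percent called 0). For Araf, whose groups separated in MSK1 KD but not in WT mice, the interaction was 0.09 ± 0.064 (SE, unadjusted p = 0.173, adjusted p = 0.99996), so its housing difference was not shown to differ between the genotypes. The interval of Map2k6 was the widest, from -0.514 to 0.209, and the other 7 lay within the threshold. All counts of 0 are those of edgeR. At an unadjusted p under 0.05, 482 genes (2.61%) differed between the enriched genotypes, 1120 (6.06%) by genotype over both housings and 377 (2.04%) in the interaction, with none of the 8 among them, and DESeq2 called 0 genes in each.

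The balance between related kinases was taken within each library, where it does not depend on how the library is scaled. The log2 ratio of Map2k1 over Map2k2, the 2 MEK genes, was on average 1.93 ± 0.035 in KD EE (SD over 5 libraries) against 2.08 ± 0.122 in KD SH (SD over 6 libraries), and the difference of -0.15 had p = 0.0390 by a two-sided exact permutation test (adjusted p = 0.234 over 12 tests). The log2 ratio of Araf over Braf was on average -0.21 ± 0.043 in KD EE (SD over 5 libraries) against -0.05 ± 0.098 in KD SH (SD over 6 libraries), a difference of -0.16 (exact permutation p = 0.0152, adjusted p = 0.182). In the fit with the trends by GC content and length as covariates, the same comparison was -0.03 for Araf and -0.0069 for Braf. Without these covariates it was -0.13 and 0.03. Between WT EE and WT SH, that fit gave -0.05 for Araf and 0.07 for Braf, beside -0.04 and 0.02 without the covariates. For the MEK genes in MSK1 KD mice it gave -0.10 for Map2k1 and 0.02 for Map2k2, beside -0.08 and 0.08. The part of base composition in these ratios was not tested. The smallest p this design allows is 0.00216. The log2 ratio of Mapk14 over Mapk11, the p38 genes, had a mean of 1.59 ± 0.159 in the 5 WT EE libraries and of 1.75 ± 0.208 in the 6 WT SH libraries (SD, exact permutation p = 0.203, adjusted p = 0.464). None of the 12 comparisons of ratios passed the threshold.

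The levels of some members went with the base composition of the library. For each library, the slope of its log2 deviations from the mean of each gene was taken against the GC content of the gene's longest transcript, and likewise against its length. The GC slope was lowest in library 5 (KD SH, -0.27 log2 units per 10 points of GC) and library 14 (WT SH, -0.16), and highest in library 17 (WT EE, 0.14). Map2k2, with the highest GC of the 8 at 60.4%, was lowest in the same libraries, at 60.5 CPM in library 5 and 65.2 CPM in library 14. Across the 22 libraries the level of Map2k2 went with the GC slope (Pearson r = 0.90, Spearman rho = 0.85, both permutation p = 1e-05, the smallest that the 100000 permutations give, adjusted p = 0.00016 over 16 relations). Without libraries 5 and 14 r was 0.77, and within groups 0.90.

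Braf, with the lowest GC of the 8 at 42.6%, ran the other way (r = -0.62, rho = -0.61, permutation p = 0.00206 and 0.00321, adjusted p = 0.0110 and 0.0128, r = -0.49 without libraries 5 and 14, and -0.73 within groups). It went with the length slope as well (r = 0.60, rho = 0.64, permutation p = 0.00295 and 0.00157, adjusted p = 0.0118 and 0.00837, r = 0.70 without libraries 1 and 7, and 0.67 within groups). Araf went with the length slope (r = -0.72, rho = -0.76, permutation p = 0.00015 and 7e-05, adjusted p = 0.0012 and 0.00056, r = -0.68 without libraries 1 and 7, and -0.66 within groups). Map2k6 went with the length slope by Pearson r but not by rho after adjustment (r = 0.57, rho = 0.49, permutation p = 0.00585 and 0.0218, adjusted p = 0.0187 and 0.0698, r = 0.50 without libraries 1 and 7, and 0.54 within groups). For Mapk3 and Mapk11 neither slope reached an adjusted p of 0.05. The slopes are made from all genes of the same libraries, so they describe the libraries and are no separate measurement.

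With both slopes as covariates the housing difference over both genotypes was -0.16 (unadjusted p = 0.0111, adjusted p = 0.272) for Mapk3 and 0.15 (unadjusted p = 0.0463, adjusted p = 0.402) for Mapk11, as large as without them. That of Araf was -0.04 (unadjusted p = 0.165), against -0.08 without them. Map2k1 was at -0.09 over both genotypes with the slopes (unadjusted p = 0.0351, adjusted p = 0.369), and at -0.07 without them.

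**Figure D4:**
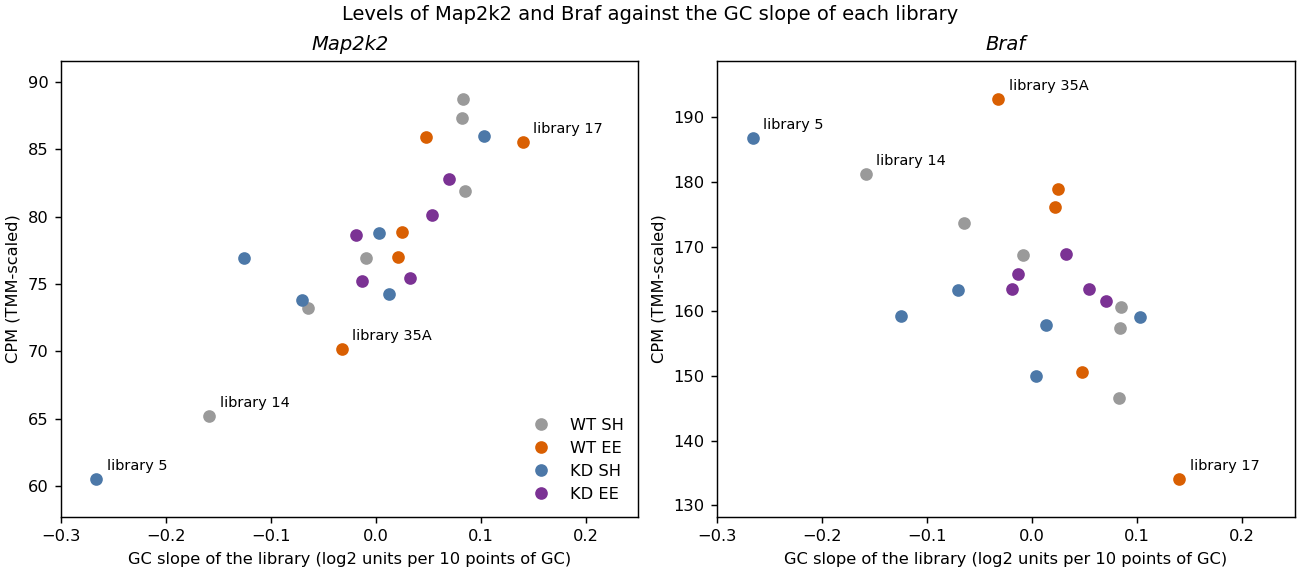
CPM of Map2k2 (left) and Braf (right) in each of the 22 libraries against the GC slope of the library (log2 units per 10 points of GC), coloured by group. Map2k2 rises along the axis (r = 0.90) from library 5 at 60.5 CPM, and Braf runs downward (r = -0.62) to library 17 at 134 CPM. The vertical axes do not start at 0.

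The members did not move as a block from library to library. With the mean of each group taken off, 13 of the 28 pairs were positively and 15 negatively correlated over the 22 libraries, with a median r of -0.07. Braf and Map2k2 were opposed most (r = -0.80), and Braf and Map2k6 (0.64), Map2k1 and Map2k2 (0.58) and Map2k1 and Mapk3 (0.53) went together most. These are descriptions, since all pairs share the same libraries with their depth and base composition.

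The genes most like each member by this correlation are also a description. Braf was nearest to Myo9a (r = 0.95) and Apc (0.94), with GC contents of 42.3% and 44.3%, and Map2k2 to Ssbp4 (0.94) and Abhd17a (0.93), with 64.3% and 64.6%. The neighbours of Braf were thus low and those of Map2k2 high in GC, like the members themselves. Mapk11 was nearest to Rps6kb2 (0.92) and Coro6 (0.88), and Mapk14 to Bhlhe22 (0.82) and Ubtf (0.81). Map2k1 was nearest to Arpc1a (0.92) and Arf1 (0.91), Map2k6 to Zeb2 (0.88) and Onecut2 (0.88), Mapk3 to Ssbp3 (0.83) and Gm9234 (0.81), and Araf to Ift20 (0.84) and Bbs2 (0.84).

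The rest of the pathway was described by 59 genes in 7 lists, all of them tested, and none was called in any of the 7 comparisons over the 22 libraries. Over both genotypes, 12 of the 59 had an unadjusted p under 0.05 for housing, 5 with higher and 7 with lower means in enriched mice, beside 16.1% of all genes, and the median log2 fold change of the 59 was 0.02.

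Among the other MAP kinases, Mapk4, an atypical one, had the lowest p of all 59. Its mean was 50.6 ± 2.89 CPM in WT SH and 61.8 ± 8.17 in WT EE, and 48.2 ± 3.36 in KD SH and 59.3 ± 13.1 in KD EE. Over both genotypes its log2 fold change was 0.31 ± 0.073 (SE, unadjusted p = 0.00029, adjusted p = 0.0559). Over the 17 libraries it was 0.40 (adjusted p = 0.000329) and was called, as it was within MSK1 KD mice (0.42, adjusted p = 0.0120). Mapkapk3, a kinase that p38 phosphorylates, was the other gene called over both genotypes in the 17 libraries, at 0.51 (adjusted p = 0.00575), beside 0.33 ± 0.121 (SE, adjusted p = 0.170) in the 22. These are 2 of 59 genes over both genotypes and 1 of 59 in MSK1 KD mice, where 3.85% and 1.74% of all genes were called. With the mean log2 level of 10 choroid plexus markers as a covariate over the same 17 libraries, edgeR called 0 genes in either comparison. The sum of these markers was 1025 CPM or more in every enriched library of the 17, and 797 CPM or less in every standard housed one. In this fit the covariate and housing can hardly be told apart, so its 0 calls decide nothing about either. Over both genotypes Mapk4 was then at 0.04 ± 0.181 (SE) and Mapkapk3 at 0.26 ± 0.338, with standard errors well above the 0.067 and 0.113 without the covariate.

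The genes of lowest p in the other lists stayed above the threshold too. Map2k4, which activates JNK and p38, differed between enriched and standard housed WT mice by -0.15 ± 0.049 (SE, adjusted p = 0.401) and in MSK1 KD mice by -0.11 ± 0.049 (SE, adjusted p = 0.4997). Rap1a, a RAS-like GTPase, was at -0.13 (adjusted p = 0.693) in WT and -0.24 (adjusted p = 0.453) in MSK1 KD mice. Of the other MAP3K genes, Map3k6 was at 0.48 (adjusted p = 0.466) in WT and Map3k9 at 0.28 (adjusted p = 0.460) in MSK1 KD mice. Pea15a, which holds ERK in the cytoplasm, had the lowest p of the scaffolds and inhibitors in both genotypes, at -0.12 (adjusted p = 0.501) and -0.10 (adjusted p = 0.536). Of the RAS exchange factors and GAPs, Rasgrf1 was at -0.10 (adjusted p = 0.773) in WT and Nf1 at 0.13 (adjusted p = 0.703) in MSK1 KD mice, and Rps6ka1, an ERK target, was at -0.14 (adjusted p = 0.595) in MSK1 KD mice.

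MSK1 itself was transcribed in both genotypes, as a point mutation allows, so its level is no check of the labels. In WT mice Rps6ka5 had a mean of 24.9 ± 2.25 CPM (SD, n = 6) under standard and of 21.4 ± 1.94 CPM (SD, n = 5) under enriched housing, and in MSK1 KD mice of 25.5 ± 2.14 CPM (SD, n = 6) and 23.5 ± 3.32 CPM (SD, n = 5). Its housing difference in WT mice was -0.22 ± 0.086 (SE, adjusted p = 0.448) and in MSK1 KD mice -0.12 ± 0.087 (SE, adjusted p = 0.675). The enriched MSK1 KD library 9, at 29.0 CPM, was the highest of all 22, while the other 4 of its group were at 20.7 to 24.0 CPM. The MSK1 KD difference was -0.20 ± 0.082 (SE, adjusted p = 0.462) without library 9 and -0.08 without library 4, and with the choroid plexus covariate it was -0.02, beside -0.15 in WT mice.

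**Figure D5:**
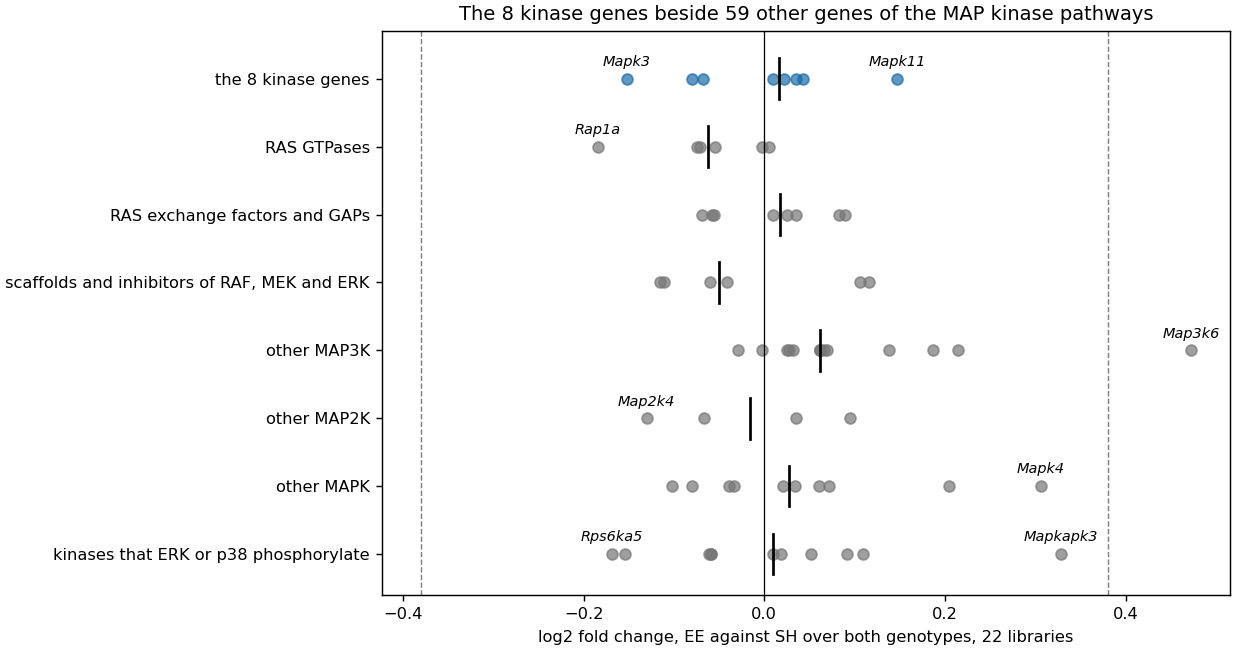
Log2 fold change of enriched against standard housed libraries over both genotypes (22 libraries) for the 8 kinase genes and for 59 other genes of the pathways, with 1 point for a gene, a bar at the median of each list and dashed lines at the fold threshold of 0.38. Mapk3 and Mapk11 lie at the ends of the 8, and Map3k6 is the gene beyond the threshold, with an adjusted p of 0.0914.

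The dissected tissue varied between libraries beside these values. Choroid plexus markers, 10 genes of the epithelium that makes cerebrospinal fluid, summed to 62.5 to 1889 CPM in WT SH, 61.6 to 5321 in WT EE, 43.3 to 2951 in KD SH and 211 to 5742 in KD EE, and none of the 10 was at 0 in all libraries. All 10 had higher means in enriched mice of both genotypes, with none called (median log2 fold changes of 2.54 in WT and 2.04 in MSK1 KD mice). None of the other marker genes was called for housing within a genotype either. Those of the meninges were higher for 6 of 6 genes in both genotypes (medians of 0.49 in WT and 0.34 in MSK1 KD mice), and those of blood for 5 of 5 in WT (median 0.53) and 1 of 5 in MSK1 KD mice (median -0.10). Oligodendrocyte markers were higher in enriched mice for 1 of 6 in WT (median -0.14) and 0 of 6 in MSK1 KD mice (median -0.15), and neuron markers for 0 of 6 (median -0.08) and 2 of 6 (median -0.04). Thalamic markers were higher for 0 of 5 in both genotypes (medians of -0.90 in WT and -0.10 in MSK1 KD mice). Their sum was 280 CPM in library 12, 42.8 to 66.7 CPM in the other WT SH libraries and 53.9 to 60.5 CPM in WT EE, so the WT median leans on library 12. Those of ependyma were higher for 4 of 6 in both (medians 0.46 and 0.28), and those of microglia for 1 of 6 in both (medians -0.08 and -0.11). Striatal markers were higher for 1 of 6 in WT (median -0.19) and 5 of 6 in MSK1 KD mice (median 0.07). Their sum was 265 CPM in library 14, 145 to 170 CPM in the other WT SH libraries and 158 to 185 CPM in WT EE. The part of these other markers in the results was not tested. With the mean log2 level of the 10 choroid plexus markers as a covariate, Mapk3 was at -0.18 (unadjusted p = 0.00883), Mapk11 at 0.16 (unadjusted p = 0.0480) and Araf at -0.09 (unadjusted p = 0.0326) over both genotypes, as large as without it. The same covariate moved Braf from 0.02 to 0.11 (unadjusted p = 0.0577) and Map2k6 from 0.04 to 0.15 (unadjusted p = 0.110). Over the 17 libraries with this covariate, Mapk3 was at -0.12 ± 0.188 (SE, unadjusted p = 0.545), Mapk11 at 0.34 ± 0.201 (unadjusted p = 0.106) and Araf at 0.01 ± 0.119 (unadjusted p = 0.960). Within the genotypes, the same fit put Map2k1 at -0.18 ± 0.167 (SE) in WT and at -0.18 ± 0.147 in MSK1 KD mice. Mapk11 was at 0.39 ± 0.225 in WT and at 0.29 ± 0.203 in MSK1 KD mice. These standard errors were above those over the 17 libraries without the covariate. In these 17 libraries the choroid plexus sums of the 2 housings did not overlap, so the covariate and housing can hardly be told apart there. Library 12 (WT SH) had 280 CPM of thalamic markers, beside 42.8 to 93.0 in the other 21, and library 14 (WT SH) had 265 CPM of striatal markers, beside 137 to 187. In bulk tissue, fewer cells of a type and less RNA per cell cannot be told apart.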

How the data were processed

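The authors prepared poly-A libraries, aligned the reads with STAR 2.5 to GRCm38 and counted reads per gene symbol with HTSeq, unstranded. The deposited files hold the raw counts, and a further deposited table of scaled values was not used here. In the 22 libraries, 14.05 to 18.6% of reads fell outside single genes and stayed out of library sizes. CPM were scaled by TMM. Genes were filtered with filterByExpr, and 1 mean per group was fitted with the quasi-likelihood test of edgeR 4.0.16 in R 4.3.3. Adjusted p are Benjamini–Hochberg values over 18482 genes. The study tested with DESeq2 on 17 libraries, and both are alternatives here (DESeq2 1.42.0). GC content and exon lengths came from GENCODE M21, and 17898 of the 18482 genes tested (96.8%) had a value. Ratios were compared by exact permutation tests and correlations by 100000 permutations, with a prior count of 2 on the log2 scale. The test was also run on simulated data, and the outcome is not reported here. No 2 libraries held identical counts. The genes, lists and tests were chosen with earlier results of these data known. Named genes were the members, Rps6ka5, the list genes called or of lowest p for housing within each genotype, and the 2 genes most correlated with each member. Values of some pathway genes are not reported here.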

Additional observations from a re-analysis of the deposited data

Results flagged for a closer look

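Of 44 sets of values examined, the 8 genes and 3 ratios in each group, 3 held a library far from the others of its group, and chance gives about 1 in 20. Library 5 of KD SH was highest for Braf at 187 CPM, beside 149.9 to 163 CPM in the other 5 libraries, and lowest for Mapk3 at 123 CPM, beside 158 to 168 CPM. The same library had the lowest GC slope of all 22. It also had the lowest sums of dentate gyrus markers (155 CPM) and of CA1 markers (284 CPM) of all 22. Its sum of thalamic markers, 93.0 CPM, was the highest in KD SH. Library 12 of WT SH had the lowest log2 ratio of Mapk14 over Mapk11 at 1.34, beside 1.71 to 1.90, and the highest sum of thalamic markers. Without library 12 the difference of this ratio between WT EE and WT SH was -0.24 (exact permutation test, adjusted p = 0.0693), beside -0.16 with it.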

How the results depend on the processing

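No member was called under any alternative or with any library left out. Over the 4 comparisons of pairs of groups, 384 log2 fold changes of members were computed under 12 alternatives. Of these, 37 had the opposite sign to the fit over 22 libraries, and of 704 with 1 library left out, 36 had it. In none of these did both values exceed their standard errors with opposite signs, and the lowest adjusted p was 0.218. For housing over both genotypes the lowest was 0.0622, for Mapk3 without library 5, and that of Araf was 0.128, without library 17. No ratio passed the threshold under any alternative; that of Araf over Braf in MSK1 KD mice was 0.10 over all 24 libraries, where 34B holds 5 and 2 counts, and Mapk14 over Mapk11 had no value there, since 34B holds 0 counts of Mapk11.

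The number of all genes called depended on the libraries. For housing in WT mice it was 0, and 664 over the 17 libraries, 1 over all 24, 314 without the lettered libraries, 20 with DESeq2 and 7 without the filter. For housing in MSK1 KD mice it was 0, and 325 over the 17 libraries, 3 with DESeq2, and 0 to 1 with 1 library left out (1 without library 9). Between WT SH and KD SH DESeq2 called 2, and between WT EE and KD EE 1 gene was called over the 17 libraries, and 0 to 1 with 1 library left out (1 without library 9). For housing over both genotypes it was 27, and 49 by the adjusted p alone, 720 over the 17 libraries, 90 over all 24, 80 without the lettered libraries, 44 with DESeq2 size factors, 50 by total count, 211 with DESeq2, 209 without the filter, 45 with at least 10 counts in every library, 9 with the choroid plexus covariate, 0 with it over the 17 libraries, and 0 with the slopes of GC and length, which was added after seeing the data. With 1 library left out it ran from 2 to 287, highest without 31B (287), 2 (278), 35A (222), 12 (175) and 9 (150), and lowest at 2. The causes were not tested, and over the 17 libraries the choroid plexus covariate can hardly be told apart from housing. No paired analysis was possible because no library shares its number with a library of another group. Libraries 33A and 33B, both WT EE, share a number, and the fits over all 24 libraries count them as separate samples.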
